A study of Bos taurus with 6 samples.

Results

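The cattle miRNAs from bta-miR-2286 up to bta-miR-2487 in number, of which bta-miR-2486-5p is the last listed, were described in liver small RNA libraries of Wye Angus steers. Members were chosen by name alone, as every mature miRNA whose number after bta-miR- lay in this range, with any letter or arm suffix, which gave 239 of the 1030 mature miRNAs listed. The grass-fed group held 3 steers of 21 months raised on alfalfa, hay or grass pasture, and the grain-fed group held 3 steers of 14 months raised on corn silage, shelled corn, soybean and minerals, with 1 library per steer. All 6 steers came from a herd described as closed and were sampled at market weight, and the labels name no other treatment. Diet and age cannot be told apart in this design. Each grass-fed library also had more miRNA counts than each grain-fed library, 3824592 to 6133960 against 464875 to 892929, so depth separated the groups in the same way.

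MicroRNAs are short RNAs cut from hairpin precursors, and either side of the hairpin can give a mature product, the 5p or the 3p arm. Loaded into Argonaute proteins, they pair through a short seed near their 5′ end with sites mainly in messenger RNAs and reduce the output of those messages. Numbers are given in the order of entry into the miRNA registry miRBase, so that miRNAs with neighbouring numbers need not share a sequence, a seed or a function. This range holds mostly entries named first in cattle, and for most of them no target or role is established. Where a role is given in the text below, it is therefore that of the gene the precursor lies in.

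For bta-miR-2484, the most abundant member, designed oligos were given by the study for RT-qPCR. The forward primer, shown because it stands for the member with the smallest FDR, reads 5′ to 3′ in lower case:
bta-miR-2484 forward primer: gcggagctatgatgactttga
The stem-loop primer for reverse transcription shared its first 44 bases with the other stem-loop primers of the study, 6 in all, and ended in 6 bases of its own, ATGCAA, the reverse complement of TTGCAT. These 6 ends differed among all 6 primers. Sequences of the other members were not used here.

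Counts were taken as deposited, as the largest count over the precursors of a mature miRNA. Levels are in CPM, counts per 1000000 library counts after TMM scaling, which adjusts library sizes for differences in composition. A miRNA was called detected with more than 2 counts in at least 2 libraries, and differences were tested with the quasi-likelihood test of edgeR over all 456 detected miRNAs of the table, with Benjamini-Hochberg adjustment and FDR 0.1. A log2FC is the fitted log2 fold change of grass-fed relative to grain-fed liver, given with its standard error (SE), and 3 values in a row stand for replicates 1, 2 and 3. A count of 0 allowed up to 0.632 to 0.787 CPM in the grass-fed libraries and 2.92 to 5.32 CPM in the grain-fed libraries, taking 3 counts as the limit. These limits and all intervals below cover counting error only.

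The liver label was checked against marker lists. The summed level of the 4 hepatocyte miRNAs, bta-miR-122 among them, was 516580 to 820650 CPM in grass-fed and 328180 to 389840 CPM in grain-fed libraries, and 2 of the 4 were called higher in grass-fed liver. The lists of skeletal muscle, erythroid, leukocyte and biliary miRNAs lay between 197 and 1075 CPM in each library, and of these only biliary markers were called, 1 lower and 1 higher in grass-fed liver in edgeR. The 4 pancreas miRNAs summed to 32.3 to 36.0 CPM in grass-fed and 14.2 to 136 CPM in grain-fed libraries, and 3 of the 4 were called lower in grass-fed liver. No marker of the lists was at 0 in all libraries. The part of other cell types in the differences below was not tested, and in bulk tissue fewer cells of a type and less RNA per cell cannot be told apart.

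Most members were absent or barely seen. Of the 239 members, 146 had no count in any of the 6 libraries, 63 had at least 1 count without being detected, and 30 (12.6%) were detected, against 456 of 1030 (44.3%) among all listed miRNAs. The 63 sparse members held 163 counts in all, none of them more than 9 over the 6 libraries, and 24 of them rested on a single count. Of the bta-miR-2284 and bta-miR-2285 names, a large family of ruminants, 84 of 148 (56.8%) were detected, and with a number of 10000 or above 33 of 129 (25.6%). These shares are descriptions without a test. Of the detected members, 10 had more than 2 counts in all 6 libraries. Another 8 had more than 2 counts in at least 2 grass-fed libraries and in no grain-fed library, and 1 member, bta-miR-2340, showed the opposite. The same split was not counted over all detected miRNAs, and the grass-fed libraries were the deeper ones, so it is a description.

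More members were seen in the deeper libraries. The number with more than 2 counts was 30, 32 and 30 in the grass-fed steers and 20, 16 and 14 in the grain-fed steers. The means were 30.7 ± 1.15 and 16.7 ± 3.06 (SD, n = 3 each). Over all miRNAs the number above 2 counts was higher in the deeper libraries as well, 440 to 456 against 309 to 346. When each library was brought to the 464875 counts of the smallest one, by the hypergeometric expectation and with no random draw, the order of the groups turned. The expected numbers were then 11.02, 10.4 and 10.6 for the grass-fed steers and 13.7, 14.0 and 14.0 for the grain-fed steers. Every grain-fed library thus stood above every grass-fed library (exact two-sided permutation p = 0.1, the smallest that 3 libraries against 3 can give). The expected number over all miRNAs was not calculated, so whether this turn is particular to the members was not tested. Equal depth here means equal total counts, and with total count scaling the median log2FC of all tested miRNAs was -0.29.

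**Figure D1:**
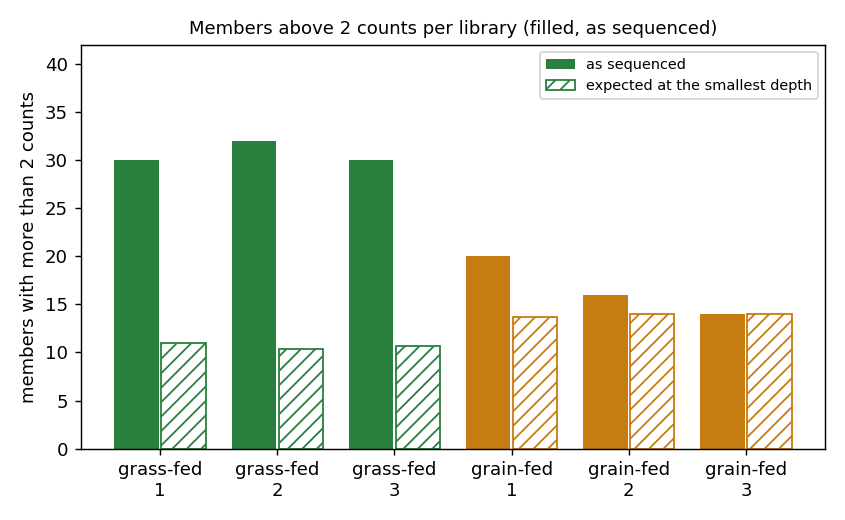
Number of members with more than 2 counts (y axis) in each of the 6 libraries (x axis), as sequenced in filled bars and the number calculated for 464875 counts in hatched bars, with grass-fed libraries in green and grain-fed libraries in orange. The filled bars are higher in grass-fed libraries (30 to 32 against 14 to 20), and the hatched bars are higher in grain-fed libraries (13.7 to 14.0 against 10.4 to 11.02).

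The members took a much larger share of the miRNA counts in grain-fed liver. They held 3350, 2307 and 2801 counts in the grass-fed steers, which is 0.0660% (95% exact interval 0.0638 to 0.0683), 0.0376% (0.0361 to 0.0392) and 0.0732% (0.0706 to 0.0760) of the library. In grain-fed replicates 1, 2 and 3 they held 8466, 5466 and 6738 counts, or 0.948% (0.928 to 0.968), 0.861% (0.838 to 0.884) and 1.45% (1.42 to 1.48). Even as raw counts, each of the shallower grain-fed libraries thus held more than any grass-fed library. The mean share was 0.0589% ± 0.0188 in grass-fed and 1.09% ± 0.318 in grain-fed liver (SD, n = 3 each), 18.4 times as high in the latter, with separate ranges and an exact two-sided permutation p of 0.1, the smallest possible.

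A few members made up this share. bta-miR-2484, bta-miR-2332 and bta-miR-2411-3p together took 76.6%, 64.0% and 80.1% of the member counts in the grass-fed steers and 96.0%, 95.1% and 95.5% in the grain-fed steers. The widest exact 95% interval of these shares was 62.0 to 66.0%, in grass-fed replicate 2. All other members together held 0.0145% ± 0.000957 of the counts in grass-fed and 0.0482% ± 0.0146 in grain-fed libraries (SD, n = 3 each), a ratio of 3.32, and their ranges did not overlap either (exact permutation p = 0.1, two-sided). The share therefore differed in the same direction with and without the 3 leading members, by a smaller ratio without them. The other members still included the remaining members called lower in grass-fed liver, among them bta-miR-2427 and bta-miR-2463. Their joint ratio therefore does not describe the members without a call, whose share was not compared.

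**Figure D2:**
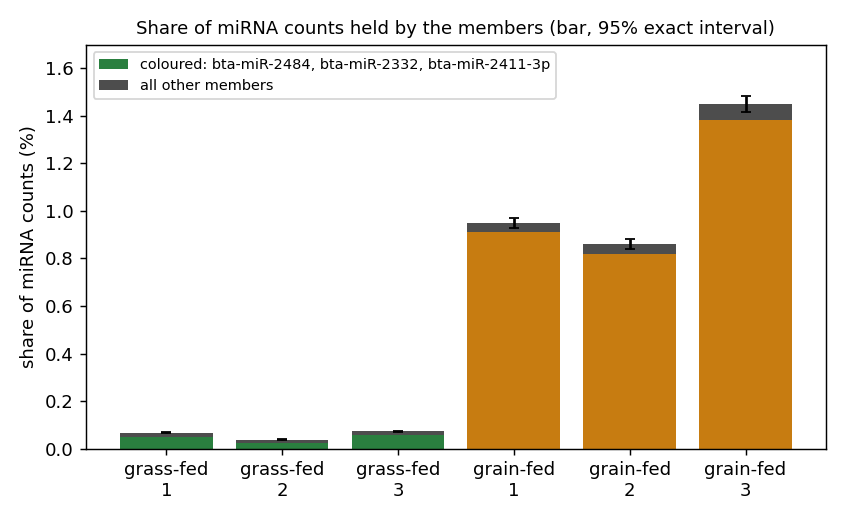
Share of all miRNA counts held by the members in percent (y axis) in each library (x axis), with the 3 leading members in colour, all other members in grey and the 95% exact interval of the total as a line. The grain-fed bars reach 0.861% to 1.45% and the grass-fed bars 0.0376% to 0.0732%.

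Of the 30 detected members, 10 were lower and 1 was higher in the grass-fed steers at FDR 0.1 in the edgeR quasi-likelihood test. That is 33.3% lower and 3.33% higher, where 9.65% of all tested miRNAs were lower and 9.43% were higher. Counting either direction, 11 members were called, against 19.1% of all tested miRNAs. A log2FC below -2 with a call was found for 8 members, against 6.8% of all tested miRNAs, so these 8 made up 8 of 31 such miRNAs in the table. Among members, 15 of 30 had separate CPM ranges in the groups, 10 with grass-fed below and 5 with grass-fed above, against 32.9% of all tested miRNAs, or 13.2% below and 19.7% above. The members' share stood above that of all tested miRNAs for decreases and below it for increases. Decreases were also called for 31.6% of the 19 detected miRNAs from bta-miR-1179 to bta-miR-1949, for 27.3% of the 33 with a number of 10000 or above, and for all 3 from bta-miR-2488 to bta-miR-2917. bta-miR-2340 had more than 2 counts in grain-fed libraries alone and 8 members in grass-fed libraries alone. Further members, among them bta-miR-2387, had a single grain-fed library above 2 counts and also met the detection rule through grass-fed libraries. These counts over the detected members are therefore descriptions. The median log2FC of the members was -0.07, or -0.21 with the 2 members at 0 in grain-fed liver placed at their bound, and that of all tested miRNAs was 0.13.

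The 3 members with the most counts were all among the decreases. bta-miR-2484 had 220.0, 230 and 274 CPM in the grass-fed steers and 4717, 4894.5 and 4921 CPM in the grain-fed steers. The libraries of each group lay close together, with a coefficient of variation of 11.95% in grass-fed and 2.29% in grain-fed liver, and the lowest grain-fed library was 17.2 times the highest grass-fed library. The log2FC was -4.33 (SE 0.22, FDR = 6.74e-08 from edgeR), and leaving out single libraries gave values from -4.51 to -4.29. The raw counts went the same way, 3063 over the 3 grass-fed libraries and 11074 over the 3 grain-fed libraries, although the grass-fed group held 7.55 times as many miRNA counts. The precursor lies in LOC112445178, a protein-coding gene without a name.

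bta-miR-2332 had 264, 84.6 and 236 CPM in the grass-fed steers and 2067, 1608 and 4373 CPM in the grain-fed steers. Its precursor lies in UTP6, a gene for a component of the complex that processes the precursor of the small ribosomal RNA. The spread was wide, up to 3.12-fold between grass-fed and 2.72-fold between grain-fed animals, and the groups were apart by 6.09-fold at the nearest libraries. The log2FC was -3.78 (SE 0.47, FDR = 1.19e-04, edgeR).

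bta-miR-2411-3p had 56.2, 33.9 and 78.7 CPM in the grass-fed steers and 1136, 857 and 2125 CPM in the grain-fed steers. Its precursor lies in UBAP2L, which encodes an RNA-binding protein of stress granules. The nearest libraries of the groups were 10.9-fold apart, and the log2FC was -4.61 (SE 0.41, FDR = 7.41e-06, edgeR).

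bta-miR-2427 showed the largest fitted decrease, -5.06 (SE 0.55, FDR = 4.97e-05, edgeR). It had 4.84, 0.943 and 4.46 CPM, from 23, 4 and 17 counts, in the grass-fed steers and 81.8, 62.3 and 215 CPM, from 84, 44 and 121 counts, in the grain-fed steers. The precursor lies in FRS2, the gene of an adaptor protein of fibroblast growth factor receptors. bta-miR-2332, bta-miR-2411-3p and bta-miR-2427 had the same order among grain-fed animals, with replicate 3 highest and replicate 2 lowest, and in each of them grass-fed replicate 2 was the lowest library of its group. bta-miR-2484 and the other members called lower did not follow this order. The uncalled bta-miR-2419-5p and bta-miR-2399-5p followed it in both groups, so the order was not particular to these decreases.

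bta-miR-2463 and bta-miR-2440 were lower in the grass-fed steers as well, the first by a larger fold than the second. bta-miR-2463, in TMEM167A, had 3.37, 2.36 and 4.99 CPM in grass-fed and 50.6, 76.5 and 81.6 CPM in the grain-fed steers, a log2FC of -4.25 (SE 0.36, FDR = 4.87e-06, edgeR). bta-miR-2440, in the gene of the ribosomal protein RPL3, had 6.32, 4.01 and 5.51 CPM in grass-fed and 36.0, 36.8 and 40.8 CPM in the grain-fed steers. Its log2FC was -2.82 (SE 0.32, FDR = 5.80e-05, edgeR), and it was the steadiest of the 10 lower members in grain-fed liver after bta-miR-2484, with a coefficient of variation of 6.75%. In both miRNAs each grain-fed library was more than 5 times any grass-fed library, by at least 10.2-fold and 5.71-fold.

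The decreases of bta-miR-2404 and bta-miR-2424 were smaller. bta-miR-2404 had 24.2, 34.4 and 29.7 CPM in grass-fed and 58.4, 92.0 and 49.7 CPM in the grain-fed steers, a log2FC of -1.18 (SE 0.29, FDR = 0.0164, edgeR). It is the only detected member with 2 precursors, one of them in FHIP1A, and the counts do not show which was the source. bta-miR-2424, in the condensin gene NCAPD2, had 5.26, 14.1 and 7.61 CPM in grass-fed and 15.6, 34.0 and 23.1 CPM in the grain-fed steers. The nearest libraries were only 1.10-fold apart, and its log2FC of -1.39 (SE 0.45, FDR = 0.0587, edgeR) lost the call when grass-fed replicate 1 or 3 or grain-fed replicate 2 or 3 was left out, with values between -1.45 and -1.14 in these fits.

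bta-miR-2340 and bta-miR-2311 were called on few counts. bta-miR-2340, in SKAP1, the gene of a T cell adaptor protein, had 1, 1 and 0 counts in the grass-fed steers and 3, 5 and 5 counts in the grain-fed steers. Over the groups it was 36.2 times higher in grain-fed liver, with a 95% counting interval from 8.20 to 331 (log2FC -4.81, FDR = 4.54e-04, edgeR). It met the detection rule only through the grain-fed libraries, where it was high, so these values are a description. bta-miR-2311 had 1, 3 and 3 counts in the grass-fed steers and 5, 4 and 2 counts in the grain-fed steers, 8.76 times higher in grain-fed liver with a counting interval from 3.10 to 26.7 (log2FC -3.02, FDR = 0.00730, edgeR). Both had separate CPM ranges, and neither was tested when at least 10 counts in 2 libraries were required.

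bta-miR-2478 was the single member called higher in grass-fed liver. It had 167, 119 and 88 counts in the grass-fed steers and 14, 6 and 11 counts in the grain-fed steers, which fell into separate CPM ranges with only 1.18-fold between the nearest libraries. The log2FC was 1.09 (SE 0.37, FDR = 0.0718, edgeR). The call was lost with libraries scaled by total count (0.68, FDR = 0.340), with a minimum of 1 count in 1 library, and when grass-fed replicate 1 or 2 or grain-fed replicate 1 or 2 was left out, with values between 0.77 and 1.10 in those 4 fits. Its precursor lies in no annotated protein-coding or lncRNA gene.

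**Figure D3:**
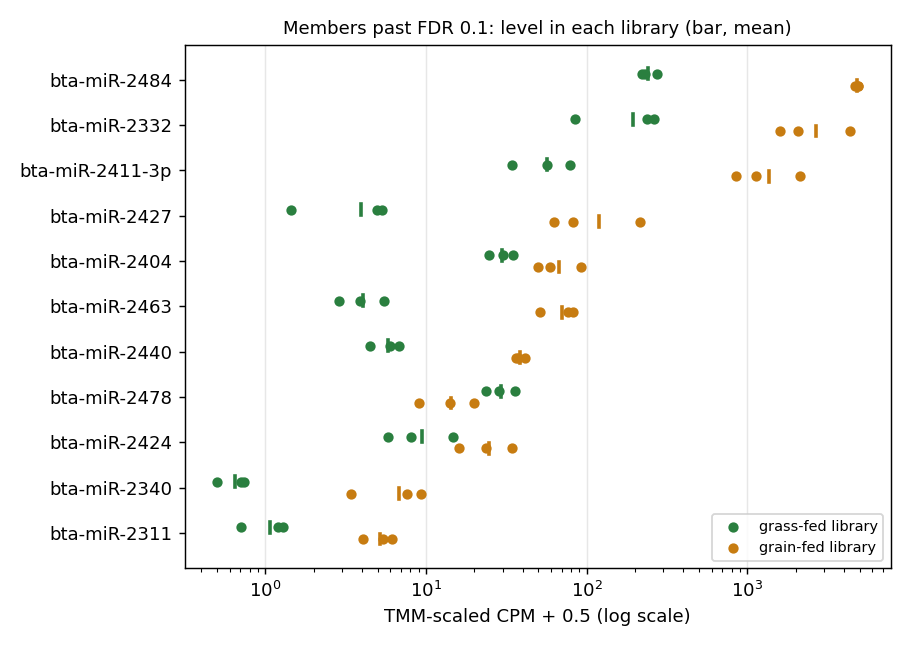
TMM-scaled CPM plus 0.5 on a log axis (x axis) of the 11 members past FDR 0.1 (y axis), with 1 point per library, grass-fed in green and grain-fed in orange, and the mean of each group as a vertical bar. The 3 grass-fed points lie left of the 3 grain-fed points in all but bta-miR-2478, and the gap is 17.2-fold for bta-miR-2484 and 1.10-fold for bta-miR-2424.

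The other 19 detected members were not called in edgeR. Their mean level over the 6 libraries was at most 11.7 CPM, and 14 had a positive and 5 a negative log2FC, between -1.10 and 5.09. The highest value was that of bta-miR-2299-3p, which had no grain-fed count. These 19 included the 8 members that met the detection rule through grass-fed libraries alone. The signs were not set against those of all uncalled miRNAs, so their split is a description. bta-miR-2419-5p had 51, 41 and 54 counts in the grass-fed steers and 12, 3 and 11 counts in the grain-fed steers, a log2FC of 0.01 (SE 0.45). bta-miR-2336 had 11.8, 21.0 and 11.02 CPM in grass-fed and 8.77, 12.7 and 3.55 CPM in the grain-fed steers, and the ranges overlapped (log2FC 0.75, FDR = 0.360, edgeR). Of these 19, 6 reached a mean of 10 counts per library, against 9 of the 11 called members.

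Separate ranges without a call occurred in 4 members, each higher in grass-fed liver. For bta-miR-2299-3p, bta-miR-2443 and bta-miR-2310 the detection rule was met only by grass-fed libraries, and 1 library apart their grass-fed levels lay below the highest limit that a count of 0 allows in grain-fed libraries, 5.32 CPM. Their separate ranges are therefore a description, since levels this low can go uncounted at the depth of the grain-fed libraries. bta-miR-2387, in the transcription factor gene GTF2IRD1, had 25, 50 and 19 counts in the grass-fed steers and 3, 2 and 1 counts in the grain-fed steers, a log2FC of 1.48 (SE 0.68, FDR = 0.196, edgeR). With a single grain-fed library above 2 counts, it too met the detection rule through grass-fed libraries. Its separate ranges are a description as well. bta-miR-2299-3p had 7, 8 and 6 counts in grass-fed libraries and none in the other group, and the 95% counting interval of the grain-fed to grass-fed ratio, 0 to 1.07, included equal levels, so no fold is given. bta-miR-2443, whose precursor lies within 10000 bases of let-7 precursors, had 3, 5 and 6 counts in grass-fed and none in grain-fed replicates, and the same interval, 0 to 1.68, included equal levels as well. The last, bta-miR-2310, had 11, 24 and 9 counts in the grass-fed steers and 2, 1 and 0 counts in the grain-fed steers. These counts are identical in every library to those of bta-miR-1814c, so the value cannot be given to either miRNA.

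**Figure D4:**
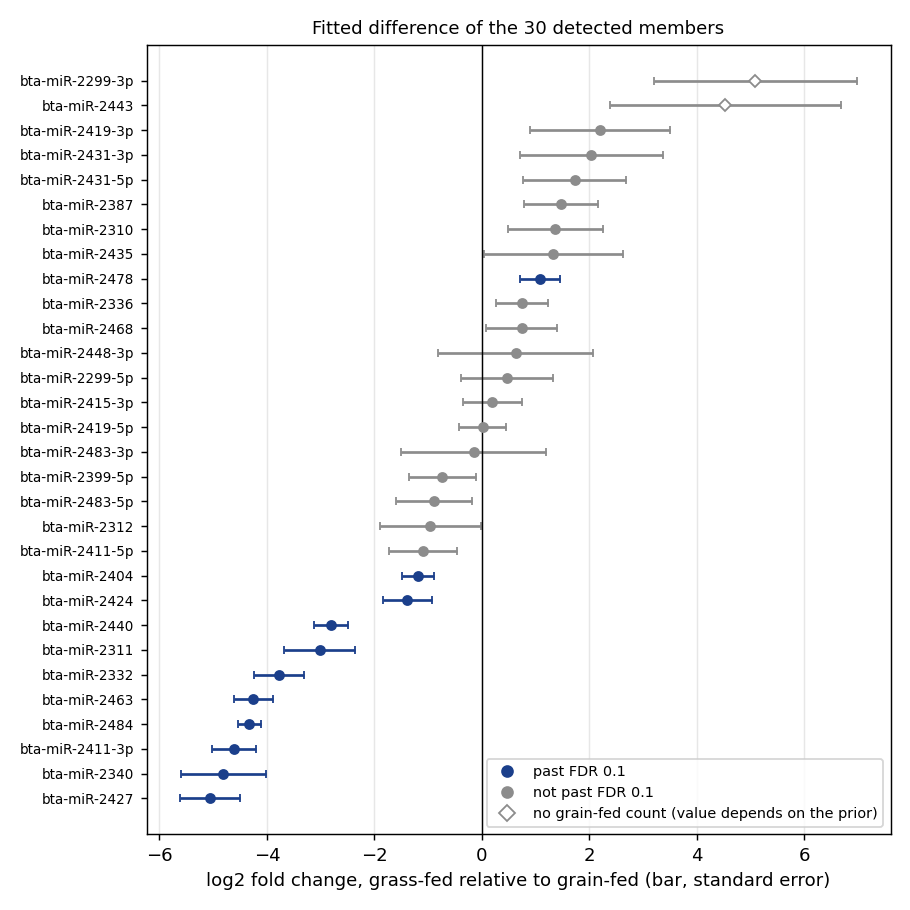
Log2FC of grass-fed relative to grain-fed liver (x axis) with its standard error for the 30 detected members (y axis, sorted), in blue where past FDR 0.1 and in grey otherwise, with open diamonds for the 2 members without a grain-fed count, whose fitted value depends on the prior count. The called decreases run from -5.06 to -1.18, and the single called increase is 1.09.

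Arms could be compared in 35 precursors for which a 5p and a 3p product are listed. Of these, 22 had any count, 14 had a count on each arm, and 8 had at least 1 arm detected. Both arms were detected in 5 precursors, bta-mir-2299, bta-mir-2411, bta-mir-2419, bta-mir-2431 and bta-mir-2483. The 5p arm had more counts in 5 of the 8 and the 3p arm in 3, so no arm was preferred throughout.

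bta-mir-2411 was nearly all 3p. The 3p arm had 3680 and the 5p arm 36 counts over the 6 libraries. Its share was 96.0% (95% exact interval 93.0 to 98.0), 93.5% (88.4 to 96.8) and 98.4% (96.2 to 99.5) in grass-fed and 99.8% (99.38 to 99.98), 99.0% (97.9 to 99.6) and 99.8% (99.40 to 99.98) in the grain-fed steers. The grass-fed shares were all lower, by a mean of 3.59 percentage points, with an exact two-sided permutation p of 0.1, the smallest that this design can give. The 5p arm itself had 11, 10 and 5 counts in the grass-fed steers and 2, 6 and 2 counts in the grain-fed steers. Its log2FC of -1.10 (SE 0.64, FDR = 0.2998, edgeR) was not called, beside -4.61 for the 3p arm of the same hairpin.

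bta-mir-2419 differed between animals within a group. The 5p arm had similar CPM in the 3 grass-fed libraries, 10.7, 9.66 and 14.2 in replicates 1, 2 and 3, while the 3p arm had 75, 81 and 1 counts there. The 3p arm made up 59.5% (95% exact interval 50.4 to 68.2) of both arms in grass-fed replicate 1 and 66.4% (57.3 to 74.7) in replicate 2, but 1.82% (0.0460 to 9.72) in replicate 3, an interval that lies far below the other two. In grain-fed libraries the 3p arm had 6, 0 and 0 counts beside 12, 3 and 11 counts of the 5p arm, and its share was 33.3% (13.3 to 59.0) in replicate 1 and 0% in the others, with upper limits of 70.8% and 28.5%. The diets could not be tested on this share because grain-fed replicate 2 held 3 counts on both arms. bta-miR-2419-3p as a whole had a log2FC of 2.19 (SE 1.31, FDR = 0.307, edgeR) that rested on which animals were included. With each library left out it ranged from 1.57, without grain-fed replicate 2, to 8.05, without grain-fed replicate 1 (FDR = 0.634 and 0.336, edgeR), the latter leaving no count in the grain-fed group. Without grass-fed replicate 3 it was 2.64 and passed FDR 0.1 (FDR = 0.0402, edgeR), in a fit that then compared 2 libraries with 3. With the replicate number as a block it was 2.34 (FDR = 0.0101, edgeR). With a single grain-fed library above 2 counts, bta-miR-2419-3p met the detection rule through grass-fed libraries, so these values are a description. The precursor lies in no annotated protein-coding or lncRNA gene.

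**Figure D5:**
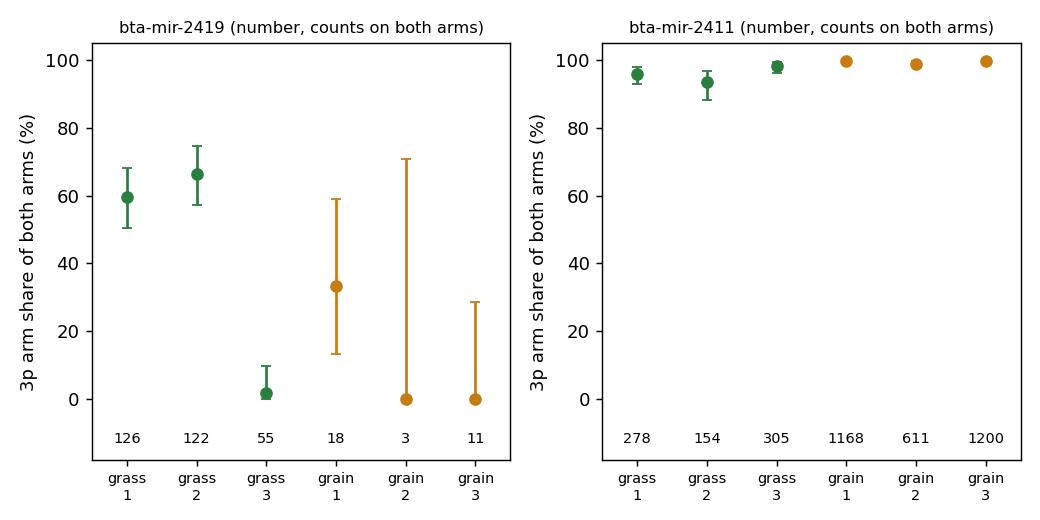
Share of the 3p arm among the counts of both arms in percent (y axis) in each library (x axis) for bta-mir-2419 and bta-mir-2411, with 95% exact intervals as lines, the number of counts on both arms printed under each point, and grass-fed in green and grain-fed in orange. In bta-mir-2419 the share is 59.5% and 66.4% in 2 grass-fed libraries and 1.82% in the other, and in bta-mir-2411 it stays between 93.5% and 99.8%.

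The remaining arm pairs were low. bta-mir-2431 had 60 counts on the 5p and 26 on the 3p arm, bta-mir-2299, in the glucosyltransferase gene B3GLCT, had 35 and 21, and bta-mir-2483, in the teneurin gene TENM1, had 28 and 12. In bta-mir-2431 the 5p arm had 17, 31 and 9 counts in the grass-fed steers and 1, 0 and 2 counts in the grain-fed steers. Its log2FC was 1.72 (FDR = 0.272, edgeR). This arm met the detection rule only through the grass-fed libraries, where it was higher, so these values are a description. A single arm was detected for bta-mir-2399 (39 counts on 5p, 2 on 3p), bta-mir-2415 (0 on 5p, 59 on 3p) and bta-mir-2448 (1 on 5p, 10 on 3p). In these hairpins the less frequent arm had at most 2 counts over all libraries.

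Positions were compared by name in RefSeq's ARS-UCD2.0 annotation, a later assembly than the ARS-UCD1.2 of the authors, so that no coordinates are given. Of the 208 precursors of the members, 206 were matched. Of these, 162 (78.6%) overlapped a protein-coding gene, on either strand, as did 17 of the 26 precursors with a detected member (65.4%), 9 of the 11 with a member lower in grass-fed liver and 145 of the 180 with none detected (80.6%). No precursor overlapped an annotated snoRNA, snRNA, tRNA or rRNA gene. A snoRNA gene lay within 10000 bases of 4 matched precursors, of which 3 had a detected member. These were bta-mir-2411, bta-mir-2431 and bta-mir-2440, the last with 3 snoRNA genes inside RPL3 itself. At any distance inside the same gene, a snoRNA gene was found for 10 matched precursors, of which 4 had a detected member. Of all 206 matched precursors, 26 had a detected member. These counts were not tested.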

How the data were processed

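Small RNA of liver was sequenced in 3 grass-fed and 3 grain-fed steers, and groups and replicate numbers come from the sample titles. The authors removed adapters, low-quality reads and reads outside their length range (FastQC version 0.11.5 and Trimmomatic version 0.36 are named in the submitters' processing notes), mapped reads to ARS-UCD1.2 and counted miRBase miRNAs with miRDeep2, for which the sources used here give no version or setting. Raw read counts were deposited, listed by mature miRNA and precursor (1207 pairs), and the deposited CPM, the same counts scaled to the library total, was not used.

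For each mature miRNA the largest count over its precursors was taken, since a read fitting several precursors is counted at each. miRNAs with more than 2 counts in at least 2 libraries were tested in edgeR (version 4.0.16, R version 4.3.3) by quasi-likelihood, with TMM scaling, Benjamini-Hochberg adjustment over all 456 tested miRNAs and FDR 0.1. The standard error is the log2FC over the square root of F. Shares have exact (Clopper-Pearson) 95% intervals, and values per library were compared with exact two-sided permutation tests. Alternatives were DESeq2 version 1.42.0, other scalings, filters and summing, FDR 0.05, a replicate block and each library left out. Replicates of a group differed by more than sampling noise.

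Named were the called members, the 10 most abundant, both arms of each detected precursor and the member with counts identical to those of another miRNA. Further members named for separate ranges or overlapping genes were chosen after their values were seen. The members and lists were chosen with earlier results of these data known.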

Additional observations from a re-analysis of the deposited data

How the results depend on the processing

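Of the 11 calls, 9 were made in every alternative that tested the miRNA, and all 11 kept their sign in each; the exceptions were bta-miR-2424 and bta-miR-2478. The number of members called lower stayed between 8 and 10. The number called higher was 1 and was 0 with total count scaling, with at least 1 count in 1 library and at FDR 0.05, 3 with upper-quartile scaling, 2 with the replicate block, and 0 to 2 with each library left out (0 without grass-fed replicate 1 or 2 or grain-fed replicate 1 or 2, and 2 without grass-fed replicate 3). The further calls were bta-miR-2299-3p and bta-miR-2387 with upper-quartile scaling and bta-miR-2419-3p in the other settings, and the cause was not tested. Each of these members met the detection rule through grass-fed libraries, so the further calls are a description. Over all tested miRNAs the median log2FC was 0.13 with TMM, -0.29 with total counts and 0.31 with upper-quartile scaling.

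The sample titles do not say that the replicate numbers pair animals. Deviations of same-numbered libraries correlated at -0.05, -0.20 and -0.01 across 456 miRNAs, which gave no sign of pairing. With 3 libraries per group these values cannot settle it. Apart from bta-miR-2419-3p, the replicate block changed no call of a member. The number of members detected was 64 with at least 1 count in 2 libraries and 19 with at least 10, and the mean of 30.7 per grass-fed library was 10.7 when expected at the smallest depth. The grass-fed minus grain-fed share of counts, -1.03 percentage points, ranged from -1.14 to -0.846 when libraries were left out and kept its sign in the other alternatives.

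Signs turned only in members that were not called. bta-miR-2419-5p, at 0.01, was -0.39 with total counts, -0.059 with DESeq2 size factors, -0.073 in DESeq2, -0.0016 with at least 1 count in 1 library, -0.061 with at least 10 counts, -0.023 with summed precursors, and -0.44 to 0.39 with each library left out. bta-miR-2415-3p, at 0.19, was -0.23 with total counts and -0.063 to 0.58 with each library left out. bta-miR-2483-3p, at -0.15, was 0.011 with upper-quartile scaling and -1.03 to 4.26 with each library left out. With each library left out, bta-miR-2299-5p, at 0.46, was -0.15 to 1.503 and bta-miR-2448-3p, at 0.63, was -0.20 to 4.10. Depth limits low values most in the grain-fed libraries, where a count of 0 allows up to 2.92 to 5.32 CPM.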
